A study of Mus musculus with 9 samples.

Results

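Expression of 9 genes of glucose uptake and glycolysis was followed through single-nucleus RNA profiles of mouse kidney after ischemia-reperfusion injury (IRI): Slc2a1, Hk1, Hk2, Pfkl, Pfkp, Aldoa, Eno1, Pkm and Ldha. They were taken by name as genes of the pathway, and all 9 of 9 were found among the 16939 genes that both UMI count tables hold. A gene missing from a table would have counted as 0, and none was.

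Each of 9 male mice gave 1 library of sorted nuclei. The day 7 group (n = 2) and the day 28 group (n = 3) were Krt20T2A-CE; INTACTnuGFP/+ mice that had both renal pedicles clamped for 18 min and received tamoxifen at 0.05 mg/g, so that nuclear GFP marks cells that expressed Krt20, a keratin of injured tubules, and the descendants of such cells. The control group (n = 4, 3 sham-operated mice and 1 without surgery) were Six2TGC; Rosa26rtTA; pTRE-H2BeGFP mice fed doxycycline at 625 mg/kg of food, in which GFP labels nuclei of the nephron lineage. All mice were 11 to 19 weeks old. Genotype, the cells the GFP sort selects, drug and surgery therefore differ together between IRI and control mice and cannot be told apart in any IRI against control comparison. The day 28 against day 7 comparison, and those within libraries, share line and sort.

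In glycolysis a glucose molecule is taken up by a carrier, trapped and primed by phosphorylation, split, and oxidized to pyruvate with a small net yield of ATP. Healthy proximal tubule (PT) cells draw their energy mainly from fatty acid oxidation and, instead of consuming glucose, make it and return filtered glucose to the blood. Segments further along the nephron, such as the thick ascending limb (TAL), use glucose more. Slc2a1 encodes GLUT1, a facilitative glucose carrier. Hk1 and Hk2 encode hexokinases, which phosphorylate glucose. Pfkl and Pfkp encode the liver-type and platelet-type subunits of phosphofructokinase, the committing step. Aldoa encodes aldolase A, which splits the 6-carbon sugar, Eno1 encodes enolase, Pkm encodes the muscle-type pyruvate kinase, and Ldha encodes the lactate dehydrogenase A subunit, which turns pyruvate to lactate.

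The libraries held 3847 and 3587 nuclei on day 7, 1863, 3928 and 1397 on day 28, and 3589, 2544, 4564 and 2419 in controls, with median depths between 668 and 4174 UMIs a nucleus. Nuclei were clustered with the 9 genes left out, and clusters were named from marker lists, since no cell annotation was used. This gave 21070 PT-like nuclei of 27738 (4664 on day 7, 5541 on day 28 and 10865 in controls) and TAL-like nuclei numbering 388 on day 7, 415 on day 28 and 859 in controls. A cluster of 1654 nuclei led by Gm26917 was left out of the PT-like class because its 10 leading genes held 1 TAL marker and 0 PT markers. Counted with the PT-like class it would have made up 19.1% and 29.0% of it in the day 7 libraries, 1.78%, 3.92% and 2.56% on day 28 and at most 1 nucleus in each control, and adding it changed no call on the 9 genes. Judged by how the barcodes begin, the 10x v2 set was used in the 4 control libraries and in day 28 mouse 1, and the v3 set in the other IRI libraries. No 2 libraries shared more than 26 barcodes. Summed UMIs per library and class were compared, and levels are given as CPM, the gene's UMIs per 1e6 UMIs of the sum, scaled with TMM factors. A CPM is a share of the sum, not an amount of RNA per nucleus.

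The stretches of DNA before the start sites of 4 of the genes are shown because these genes stand for the opposite directions found in PT-like nuclei below: Hk2 and Pfkp, which were higher after IRI, and Aldoa and Ldha, which were lower. Each is the RefSeq promoter window of 250 bases before to 50 bases after a start (GRCm38.p6), written 5′ to 3′ along the gene, with ACGTG and GCGTG, the core letters of the hypoxia response element, in capitals on either strand (read as CACGT or CACGC on the other).
Hk2 chr6:82774405-82774704 (− strand): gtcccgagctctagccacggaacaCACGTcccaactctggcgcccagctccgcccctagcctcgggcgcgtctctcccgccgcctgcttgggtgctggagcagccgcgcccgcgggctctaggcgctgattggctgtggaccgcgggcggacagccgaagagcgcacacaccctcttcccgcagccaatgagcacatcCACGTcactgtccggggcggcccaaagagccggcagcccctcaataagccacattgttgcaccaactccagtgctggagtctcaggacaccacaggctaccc
Pfkp chr13:6648722-6649021 (− strand): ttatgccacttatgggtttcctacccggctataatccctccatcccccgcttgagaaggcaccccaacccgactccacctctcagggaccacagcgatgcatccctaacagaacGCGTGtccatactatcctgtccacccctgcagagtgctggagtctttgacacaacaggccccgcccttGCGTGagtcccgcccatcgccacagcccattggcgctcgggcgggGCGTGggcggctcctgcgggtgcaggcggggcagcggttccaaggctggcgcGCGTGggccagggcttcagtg
Aldoa chr7:126799205-126799504 (− strand): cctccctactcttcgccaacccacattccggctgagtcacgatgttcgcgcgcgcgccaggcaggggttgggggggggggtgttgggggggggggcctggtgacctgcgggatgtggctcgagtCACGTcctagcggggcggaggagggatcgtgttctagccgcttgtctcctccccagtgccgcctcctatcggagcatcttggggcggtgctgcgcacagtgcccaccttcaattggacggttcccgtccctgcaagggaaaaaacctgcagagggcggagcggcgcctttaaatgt
Ldha chr7:46845554-46845853 (+ strand): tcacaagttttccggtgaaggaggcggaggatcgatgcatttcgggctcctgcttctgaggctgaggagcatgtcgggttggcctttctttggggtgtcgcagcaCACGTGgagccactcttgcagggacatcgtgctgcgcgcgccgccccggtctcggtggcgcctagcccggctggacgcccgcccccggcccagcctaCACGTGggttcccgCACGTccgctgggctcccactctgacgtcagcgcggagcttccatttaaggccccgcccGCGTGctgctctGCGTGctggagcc

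The Hk2 window held 2 ACGTG, the Pfkp window 4 GCGTG, the Aldoa window 1 ACGTG, and the Ldha window 5 ACGTG and 2 GCGTG. In the Ldha window, 2 CACGTG, a palindrome read on both strands, account for 4 of its ACGTG. Over all 16 windows of the 9 genes, 13 (81.2%) held ACGTG or GCGTG, against 43.8% of the 32851 RefSeq windows of mouse genes of the same length; ACGTG alone was in 19.6% of these and GCGTG in 32.4%. Some windows of Aldoa and of Eno1 overlap, so the same match is counted more than once. An Aldoa window not shown (chr7:126800398-126800697) held neither motif, and the Ldha window not shown held 2 GCGTG. The letters were present in genes that were higher and in genes that were lower after IRI. A match describes the sequence and is not a measured binding site.

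In PT-like nuclei the pathway did not move as one block. The carrier, both hexokinases and the platelet-type phosphofructokinase were higher after IRI at both times, whereas aldolase, enolase and lactate dehydrogenase were lower at both times, and Pkm was higher on day 7 and lower on day 28. On day 7, 8 of 9 genes passed the test against controls, 5 higher and 3 lower, where 51.4% of the 14255 genes tested passed in either direction (26.6% higher and 24.8% lower). On day 28, 8 of 9 passed, 4 higher and 4 lower, where 44.9% of all genes passed (24.0% higher and 21.0% lower). Both comparisons use the same 4 controls, so their results are not independent. Calls are at an adjusted p of 0.05 from edgeR's quasi-likelihood test, with Benjamini-Hochberg adjustment over all genes tested.

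**Figure D1:**
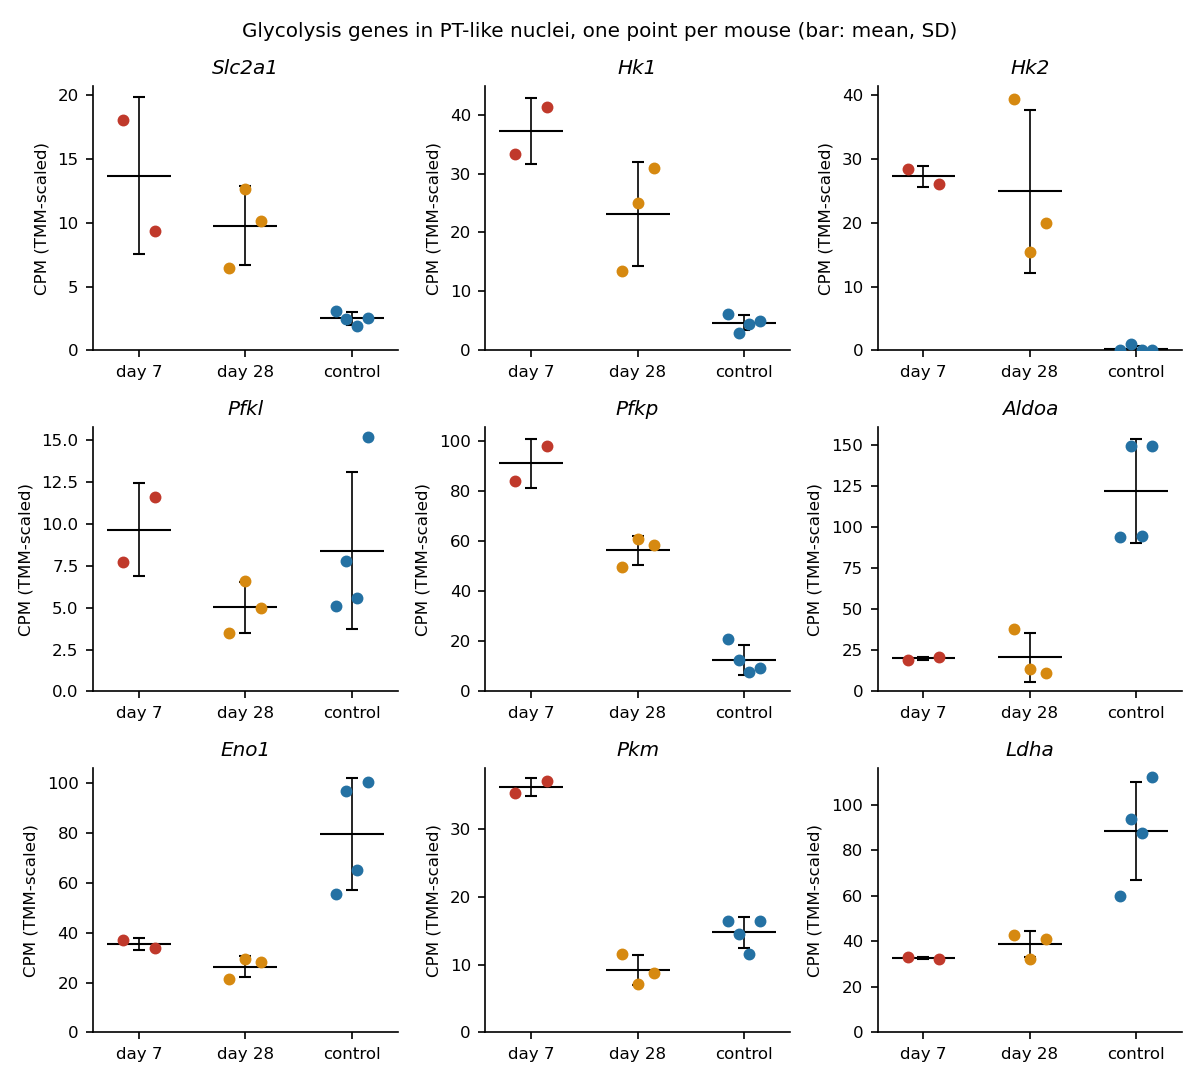
Levels of the 9 genes in PT-like nuclei (TMM-scaled CPM, linear axes from 0), 1 point per mouse for day 7 (n = 2), day 28 (n = 3) and control (n = 4), with bars for the mean and the SD. Slc2a1, Hk1, Hk2 and Pfkp lie above all controls in every IRI mouse, Aldoa, Eno1 and Ldha lie below all controls, and Pkm is high on day 7 only.

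Slc2a1 (chr4:119108711-119137983, + strand; gene positions here and below are those of GENCODE M21 on GRCm38), the glucose carrier, stood at 18.0 and 9.35 CPM on day 7 and at 6.49, 12.7 and 10.2 CPM on day 28, against 3.09, 2.50, 1.91 and 2.53 CPM in controls. Every IRI mouse lay above every control mouse, although the control sums held only 4 to 14 UMIs of the gene. The log2 difference from controls was 2.47 (SE 0.39, adjusted p = 0.00031) on day 7 and 2.01 (SE 0.37, adjusted p = 0.001) on day 28. Summed over all nuclei of whatever class, it was 0.92 (adjusted p = 0.142) and 0.87 (adjusted p = 0.146), and neither passed.

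Hk1 (chr10:62268855-62379908, − strand), the hexokinase of most resting tissues, reached 33.2 and 41.2 CPM on day 7 and 13.5, 25 and 30.9 CPM on day 28, against 6.19, 3.00, 4.56 and 5.07 CPM in controls. The groups did not overlap, and the log2 difference was 2.98 (SE 0.34, adjusted p = 2.81e-05) on day 7 and 2.33 (SE 0.32, adjusted p = 0.000127) on day 28. In the annotation Hk1os lies opposite Hk1, Pitrm1 opposite Pfkp and Fam57b opposite Aldoa, and whether counting used strand is not given in the sources used here. UMIs of Hk1os over all nuclei numbered 45 and 31 on day 7, 5, 20 and 29 on day 28, and 13, 0, 4 and 0 in controls.

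Hk2 (chr6:82725025-82774454, − strand), the hexokinase that is typical of muscle and of many proliferating or injured cells, was all but absent from control PT-like nuclei. It stood at 28.4 and 26.1 CPM (299 and 151 UMIs) on day 7 and at 39.4, 15.4 and 19.9 CPM (79, 157 and 104 UMIs) on day 28, against 1.00 CPM (4 UMIs) in control 2 and a listed 0 in controls 1, 3 and 4. In each library no gene was detected in only 1 or 2 nuclei, so a listed 0 means fewer than 3 nuclei and not proven absence. The fitted log2 differences of 6.70 (SE 0.72, adjusted p = 1.68e-05) on day 7 and 6.52 (SE 0.70, adjusted p = 1.96e-05) on day 28 depend on how a 0 is treated. With 2 UMIs put where the file lists 0, they were 5.42 (adjusted p = 5.16e-06) and 5.25 (adjusted p = 6.18e-06).

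Pfkp (chr13:6579768-6648777, − strand), the platelet-type phosphofructokinase subunit, stood at 84.3 and 98.2 CPM on day 7 and at 49.9, 61.0 and 58.5 CPM on day 28, against 21.0, 12.5, 7.65 and 9.50 CPM in controls. All 5 IRI mice lay above all 4 controls, with log2 differences of 2.83 (SE 0.32, adjusted p = 2.48e-05) on day 7 and 2.14 (SE 0.30, adjusted p = 0.000128) on day 28. Pfkl (chr10:77986947-78010083, − strand), the liver-type subunit, showed no such separation. Its levels were 7.69 and 11.6 CPM on day 7, 3.50, 6.57 and 4.99 CPM on day 28, and 5.08, 7.76, 5.59 and 15.2 CPM in controls. The groups overlapped, and neither the day 7 difference of 0.28 (SE 0.45, adjusted p = 0.611) nor the day 28 difference of -0.58 (SE 0.42, adjusted p = 0.282) passed the test.

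Aldoa (chr7:126795234-126800751 and chr7:126800790-126809108, − strand, under 2 gene records), which acts after the phosphofructokinase step, moved the opposite way from Pfkp. It stood at 19.4 and 20.8 CPM on day 7 and at 37.9, 13.6 and 10.9 CPM on day 28, against 94.1, 149, 94.5 and 149 CPM in controls. The highest IRI library, day 28 mouse 1, was still below the lowest control. The log2 difference was -2.60 (SE 0.46, adjusted p = 0.00063) on day 7 and -2.63 (SE 0.40, adjusted p = 0.000246) on day 28.

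Eno1 (chr4:150236721-150248879, + strand), the enolase of most tissues, stood at 37.2 and 33.9 CPM on day 7 and at 21.5, 29.5 and 28.2 CPM on day 28, against 55.4, 96.9, 65.4 and 100.7 CPM in controls. Its groups did not overlap either, with log2 differences of -1.15 (SE 0.29, adjusted p = 0.00529) and -1.57 (SE 0.25, adjusted p = 0.000389). The day 7 call was lost without day 7 mouse 2 (-1.07, adjusted p = 0.0622). Eno1b, a near copy annotated apart from Eno1, had at most 43 UMIs over all nuclei of any library.

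Ldha (chr7:46841475-46855627, + strand), the enzyme that makes lactate, stood at 33.0 and 32.2 CPM on day 7 and at 42.9, 32.3 and 41.2 CPM on day 28, against 60.1, 93.9, 87.5 and 112 CPM in controls. Every IRI mouse was below every control. The log2 difference was -1.43 (SE 0.27, adjusted p = 0.00103) on day 7 and -1.19 (SE 0.23, adjusted p = 0.0015) on day 28.

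Pkm (chr9:59656368-59679375, + strand), which makes pyruvate and ATP at the last step, was the one gene of the 9 that passed in opposite directions against controls at the times. It stood at 35.2 and 37.0 CPM on day 7 and at 11.5, 7.16 and 8.82 CPM on day 28, against 16.4, 14.5, 11.6 and 16.5 CPM in controls. On day 7 the log2 difference from controls was 1.31 (SE 0.25, adjusted p = 0.00117). On day 28 it was -0.72 (SE 0.25, adjusted p = 0.0351), a call lost in 13 of 23 alternative settings, with values between -0.88 and -0.55 when 1 library was left out. With another seed of the clustering both calls were lost, at 0.62 (adjusted p = 0.0632) on day 7 and -0.62 (adjusted p = 0.0586) on day 28. That seed left 3 clusters with 3470 nuclei out of the named classes. Among them was a Cdh13-led cluster of 1537 nuclei, with 847 and 671 from the day 7 mice. The part of these nuclei in the lost calls was not tested. Summed over all nuclei of whatever class, the day 7 difference was 0.28 (adjusted p = 0.533) and did not pass.

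Between day 28 and day 7, where line and sort are the same, only Pkm of the 9 genes passed the test, where 6.11% of all genes passed (4.37% higher and 1.74% lower). It averaged 9.15 ± 2.18 CPM on day 28 (SD, n = 3) and 36.1 ± 1.28 CPM on day 7 (SD, n = 2), a log2 difference of -2.03 (SE 0.28, adjusted p = 0.00166). Summed over all nuclei of whatever class, the difference was -1.30 (adjusted p = 0.0763) and did not pass. The log2 differences of Hk1, Pfkl, Pfkp and Eno1, at -0.65 (adjusted p = 0.277), -0.87 (0.303), -0.69 (0.244) and -0.42 (0.423), did not pass. Those of Slc2a1, Hk2, Aldoa and Ldha did not pass either, with adjusted p-values of 0.519, 0.874, 0.974 and 0.638. With 2 and 3 mice, these p-values do not show that the levels are equal.

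**Figure D2:**
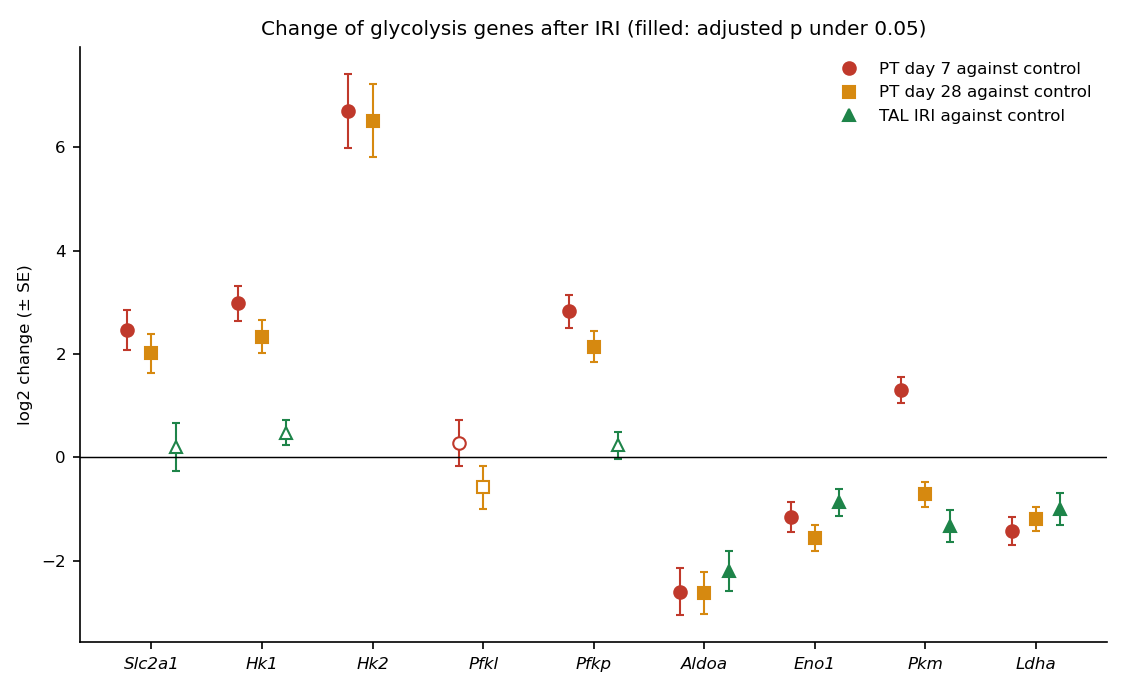
Log2 differences of the 9 genes (points) with their standard errors (bars) in PT-like nuclei for day 7 and day 28 against control, and in TAL-like nuclei for IRI against control, from edgeR. Filled points passed the test; in PT-like nuclei Slc2a1, Hk1, Hk2 and Pfkp lie above 0 and Aldoa, Eno1 and Ldha below it at both times, while in TAL-like nuclei the 4 genes that passed lie below 0.

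Several measured properties of the libraries moved with these results. The share of UMIs from Malat1, a long RNA kept in the nucleus, was 10.3% and 6.74% in the day 7 libraries, 17.2%, 17.6% and 16% on day 28, and 21.1%, 24%, 22.2% and 19.8% in controls, with no overlap between the groups, day 28 and day 7 included. Its part in the results was not tested. Genes with a short span were lower after IRI as a class: the median log2 difference of all genes was -1.49 on day 7 in the bin centred on 3.16 kb and 0.48 in that centred on 257 kb, and -0.74 and 0.32 on day 28. The span of Aldoa was taken from the longer of its 2 gene records (8.32 kb), and the other record spans 5.5 kb. Aldoa, Eno1 (12.2 kb) and Ldha (14.2 kb) have the shortest spans of the 9 genes, and Pfkp (69.0 kb) and Hk1 (111 kb) the longest. With that trend removed, all 16 calls against controls in PT-like nuclei held, with Aldoa at -2.03 on day 7 and -2.35 on day 28, Ldha at -1.25 and -1.09, Pfkp at 2.41 and 1.89, and Hk1 at 2.53 and 2.01. All controls had v2 barcodes, as did only day 28 mouse 1 of the IRI libraries. With a barcode term, every IRI against control estimate therefore rests on that mouse. With the barcode set as a term, Hk1, Hk2, Pfkp and Eno1 kept their calls at both times. Slc2a1 was lost on day 7 (1.66, adjusted p = 0.121) and on day 28 (1.39, adjusted p = 0.101), and Ldha on both days (adjusted p = 0.0899 and 0.052). Aldoa was lost on day 7 (-0.98, adjusted p = 0.177) and Pkm on day 28 (-0.34, adjusted p = 0.546).

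**Figure D3:**
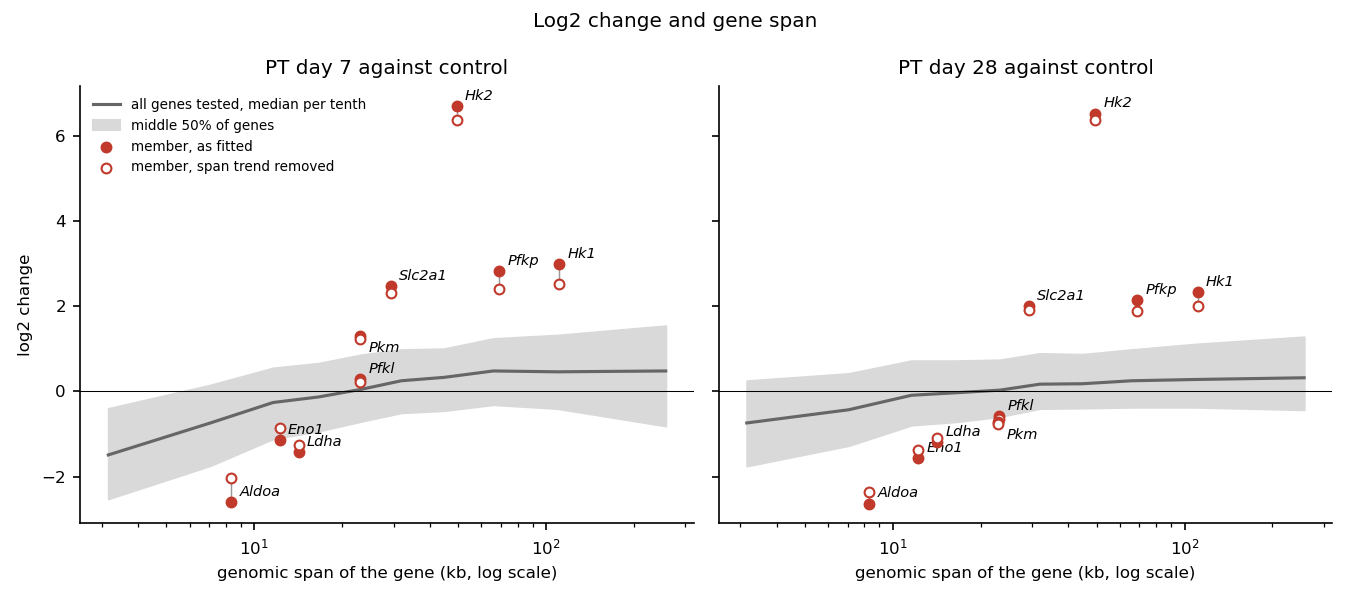
Log2 differences in PT-like nuclei by gene span (kb, log axis) for day 7 and day 28 against control. The line is the median and the band the middle 50% of all genes tested in each bin of spans, and the points are the 9 genes as fitted (filled) and with the span trend removed (open). The medians are lower for short than for long genes, and Aldoa, Eno1 and Ldha sit below and Slc2a1, Hk1, Hk2 and Pfkp above the medians at their spans.

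The day 28 estimates with the barcode term and the values given next both rest on day 28 mouse 1, so they are not separate checks. This mouse gave the only IRI library with v2 barcodes. Set alone against the 4 controls, and assuming that it varies as they do, it kept Hk2 (7.16), Pfkp (1.96, adjusted p = 0.0158), Aldoa (-1.68, adjusted p = 0.0273) and Eno1 (-1.88, adjusted p = 0.0221), while Slc2a1 (1.37, adjusted p = 0.209), Hk1 (1.52, adjusted p = 0.0759), Pkm (-0.34, adjusted p = 0.639) and Ldha (-1.03, adjusted p = 0.119) did not pass. The same library was apart from the other day 28 mice in Aldoa and Hk2, which were highest in it, and its mouse had the highest serum creatinine at 48 h, 0.488 mg/dl against 0.133 to 0.255 mg/dl in the other 4 IRI mice.

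Several summed marker lists of other cell types were also higher in the IRI PT-like sums. The 8 leukocyte markers, all 8 detected in each group, summed to 757 to 858 CPM on day 7 and 262 to 401 CPM on day 28, against 13.7 to 49.3 CPM in controls, and the podocyte list to 1570 to 1840, 1860 to 2100 and 184 to 858 CPM. The stroma list summed to 38.0 to 39.3 and 43.3 to 67.5 CPM, against 7.04 to 12.2 CPM, and the distal tubule list to 242 to 256 and 174 to 292 CPM, against 36.9 to 63.4 CPM. The TAL list was no higher, at 322 to 400 and 245 to 259 CPM against 360 to 461 CPM, with Cldn16 at 0 on day 28. The endothelial list stood at 86.4 to 90.5 and 66 to 107 CPM, against 38.5 to 148 CPM, with Cdh5 at 0 on day 28. The leukocyte list holds Cd44 and the podocyte list Wt1. With another clustering seed, each was among the 10 leading genes of a cluster scored as injured PT. A higher sum is therefore no proof of such cells, and which markers carry it was not examined. The part of such cells or of free RNA in the 9 genes' differences was not tested.

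Within the PT-like class, 14 clusters were mostly IRI nuclei and 10 mostly control nuclei, so the comparison sets largely different clusters against each other. Hk2 ran between 0 and 68.1 CPM over the 14, with a median of 23.4 CPM, and between 0 and 10.2 CPM over the 10, with a median of 0. Pfkp had medians of 72.5 CPM over the 14 and 10.4 CPM over the 10, and Slc2a1 of 10.8 and 1.73 CPM. Aldoa did not overlap, at 11.4 to 35.6 CPM against 66.4 to 153 CPM, nor did Ldha, at 29.1 to 50.1 CPM against 56.5 to 118 CPM. Among the 14 mostly IRI clusters the 9 genes did not peak together. Pkm (53.0 CPM) and Hk1 (56.8 CPM) were highest of the 14 in a Cdh13-led cluster made up of 1919 day 7 nuclei among its 1970. Other clusters of the 14 came close, a Lockd-led one in Pkm (52.4 CPM) and a Cyp7b1-led one in Hk1 (54.8 CPM). Hk2 was highest in a Gm17268-led cluster with 950 day 28 nuclei among 990, and Slc2a1 (26.1 CPM) and Pfkp (114 CPM) in an Atf3-led one. Of the 10, a Fam19a1-led cluster of 91 nuclei had the highest Hk1 (61.3 CPM), Hk2 (10.2), Pfkl (20.4), Aldoa (153) and Pkm (81.8). Its sum held only 97832 UMIs of all genes, so these values rest on few UMIs, and that of Hk2 on 1 UMI. That cluster scored -0.98 on the PT list with 0 markers raised, and 0.53 on the injured PT list with 5 raised. Its PT name is therefore uncertain. These are values of pooled nuclei, given as a description.

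In controls, the TAL-like nuclei had higher levels of Hk1, Pkm, Pfkp and Pfkl than the PT-like nuclei of the same libraries. Of 7 genes tested, 4 were higher in TAL-like nuclei and none passed lower, where 30.7% of all genes passed in either direction (14.7% higher and 16.0% lower). Hk1 averaged 120 ± 43.8 CPM in TAL-like and 4.50 ± 1.31 CPM in PT-like nuclei (SD, n = 4 each), a log2 difference of 4.69 (SE 0.23, adjusted p = 7.2e-15). Pkm averaged 110 ± 52.9 and 14.1 ± 2.61 CPM (2.84, SE 0.21, adjusted p = 4.81e-11), and Pfkp 85.3 ± 37.3 and 12.1 ± 5.69 CPM (2.82, SE 0.22, adjusted p = 7.4e-11). In each of these 3 genes every TAL-like sum lay above every PT-like sum. Pfkl averaged 14.0 ± 9.94 and 8.14 ± 4.85 CPM, and its difference of 1.29 (adjusted p = 0.0369) was lost in 5 of 12 alternative settings. Aldoa, Eno1 and Ldha differed between the tubule types by 0.13 (adjusted p = 0.58), 0.19 (0.444) and -0.41 (0.0798), which did not pass. A TAL-like cluster of 310 nuclei, with 115, 44, 84 and 55 from the controls, scored 1.35 on the PT list with 12 markers raised. The control TAL-like sums held 6390 to 11200 CPM of PT markers. The part of PT transcripts in these differences was not tested.

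**Figure D4:**
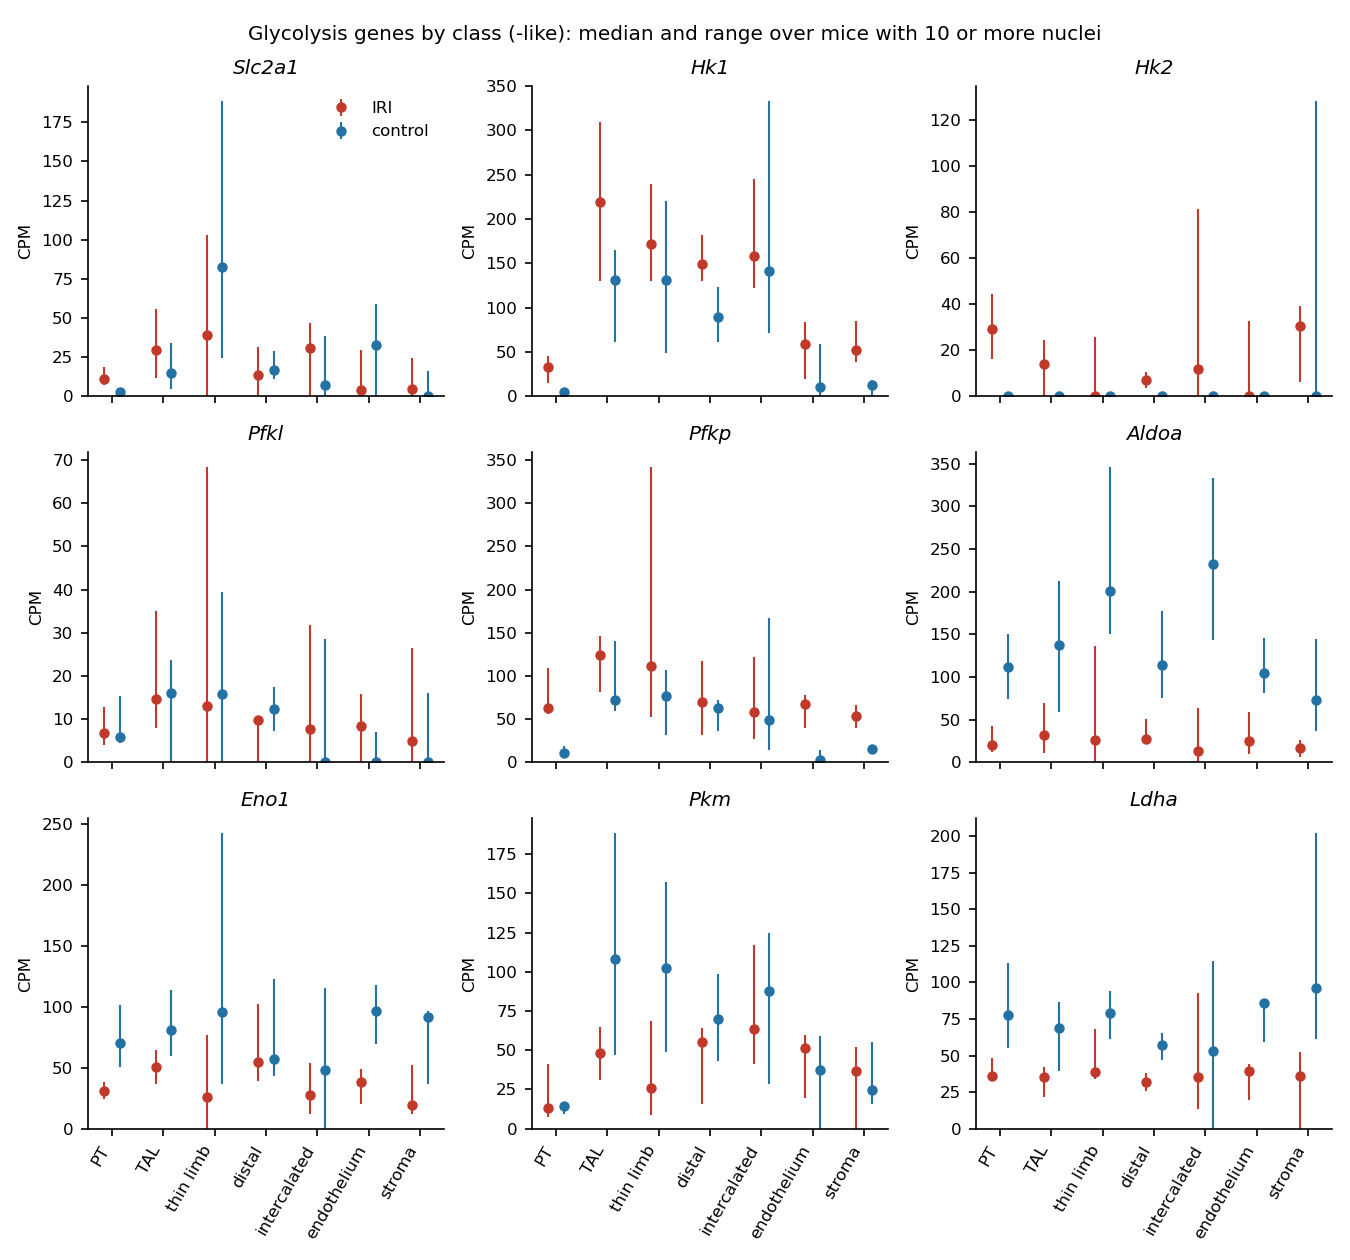
Levels of the 9 genes (CPM without TMM scaling, linear axes from 0) by class of nuclei, with the median (point) and the range (line) over IRI and control mice that had at least 10 nuclei of the class, for PT-like, TAL-like, thin limb-like, distal tubule-like, intercalated-like, endothelium-like and stroma-like nuclei. In controls the medians of Hk1 and Pfkp are lowest in PT-like, endothelium-like and stroma-like nuclei, and the Aldoa median is lower in IRI than in control mice in all 7 classes.

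Across the 7 classes that had at least 10 nuclei in 3 or more control libraries, Hk1 set the tubule segments apart. In controls it averaged 172 CPM in intercalated-like, 133 in thin limb-like, 122 in TAL-like and 90.6 in distal tubule-like nuclei, against 19.8 in endothelium-like, 10.2 in stroma-like and 4.29 in PT-like nuclei (CPM without TMM scaling, averaged over the libraries with at least 10 nuclei of the class). Slc2a1 in controls was 94.6 CPM in thin limb-like and 17.2 in TAL-like nuclei and 2.30 in PT-like nuclei. Hk2 was listed at 0 in the TAL-like, thin limb-like, distal tubule-like, intercalated-like and endothelium-like nuclei of all controls. Control stroma-like nuclei averaged 42.8 CPM, from 8 UMIs in 2 nuclei of control 2. In IRI libraries Hk2 averaged 28.1 CPM in PT-like, 26.2 in stroma-like (22 UMIs) and 21.4 in intercalated-like nuclei (8 UMIs). It averaged 12.3 in TAL-like (40 UMIs in all), 12.05 in endothelium-like (24 UMIs), 7.45 in distal tubule-like and 5.15 in thin limb-like nuclei (3 UMIs). Leukocyte-like nuclei of IRI libraries, from 26 UMIs, averaged 111.8 CPM, above the PT-like average.

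Aldoa was present in all 7 classes, and its averages were lower in IRI libraries in each of them. It averaged 22.4 CPM in IRI and 112 CPM in control PT-like nuclei, 34.8 and 137 in TAL-like, 40.3 and 225 in thin limb-like, 31.2 and 120 in distal tubule-like, 29.0 and 236 in intercalated-like, 28.3 and 109 in endothelium-like, and 16.5 and 84.8 in stroma-like nuclei. The same held for Eno1 and Ldha, whose averages in IRI libraries were below those in control libraries in each of the 7 classes. For Eno1 they ran between 23.6 and 59.0 CPM in IRI and between 53.0 and 118 CPM in control libraries, and for Ldha between 31.6 and 44.6 CPM and between 55.2 and 120 CPM. Hk1 and Pfkp averages were higher in IRI libraries in 6 of the 7 classes. For Hk1 they were 31.0 CPM in IRI and 4.29 CPM in control PT-like nuclei, 56.4 and 19.8 in endothelium-like, 55.2 and 10.2 in stroma-like, and 169 and 172 in intercalated-like nuclei, the one class with no higher average. For Pfkp they were 75.9 and 11.6 CPM in PT-like, 60.4 and 5.08 in endothelium-like, 54.2 and 15.6 in stroma-like, and 68.2 and 69.8 in intercalated-like nuclei. Podocyte-like, leukocyte-like and urothelium-like nuclei reached 10 nuclei in at most 2 control libraries and held at most 17 control UMIs of Aldoa. Their IRI and control levels are therefore not set side by side. These averages are a description with no test, and the part of free RNA in them was not tested.

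In TAL-like nuclei, 4 of the 7 genes tested were lower after IRI and none passed higher, where 29.8% of all genes passed (12.0% higher and 17.8% lower). Aldoa stood at 31.4 and 34.4 CPM on day 7 and at 71.7, 24.1 and 11.3 CPM on day 28, against 119.1, 195.9, 70.3 and 228.3 CPM in controls (log2 difference of IRI from control -2.20, SE 0.38, adjusted p = 0.000208). Pkm stood at 64.1 and 45.4 CPM on day 7 and at 41.8, 50.3 and 31.0 CPM on day 28, against 137.7, 108.9, 55.5 and 202.9 CPM in controls (-1.33, SE 0.31, adjusted p = 0.00273). In both genes only the third control reached into the range of the IRI mice. Eno1 averaged 52.1 ± 12.0 CPM in IRI (SD, n = 5) and 95.0 ± 27.2 CPM in controls (SD, n = 4), a difference of -0.87 (adjusted p = 0.0176), and Ldha 34.6 ± 7.49 and 74.6 ± 21.6 CPM, a difference of -1.0 (adjusted p = 0.02), with no overlap in either. With the span trend removed neither passed, at -0.32 (adjusted p = 0.368) for Eno1 and -0.56 (adjusted p = 0.191) for Ldha, and with the barcode set as a term none of the 4 passed (Aldoa -0.58, adjusted p = 0.803).

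Hk1, Pfkp and Slc2a1, which were higher in PT-like nuclei at both times, did not pass in TAL-like nuclei, and Hk2 was not tested there. In TAL-like nuclei Hk1 averaged 216 ± 74.7 CPM in IRI and 138 ± 49.8 CPM in controls (0.48, adjusted p = 0.156), Pfkp 121 ± 23.3 and 97.6 ± 41.5 CPM (0.23, adjusted p = 0.542), and Slc2a1 30.5 ± 16.8 and 19.2 ± 15.8 CPM (0.20, adjusted p = 0.782). All 3 genes overlapped between the groups. TAL-like sums also held UMIs of PT markers, 1690 to 2630 CPM on day 7, 865 to 2600 CPM on day 28 and 6390 to 11200 CPM in controls, and of the injured PT list, 4320 to 5350, 2450 to 2650 and 472 to 709 CPM, with Krt20 at 0 in controls. Their part in the TAL-like differences was not tested.

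The difference between the tubule types in their response was tested itself. In 3 of the 9 genes the IRI effect was higher in PT-like than in TAL-like nuclei, where 6.11% of all genes passed (3.86% higher and 2.25% lower). The log2 difference of the effects was 1.94 for Hk1 (SE 0.39, adjusted p = 0.0013), 2.03 for Pfkp (SE 0.24, adjusted p = 1.24e-06) and 1.55 for Pkm (SE 0.36, adjusted p = 0.00569). Pkm was lost without control 1 (1.46, adjusted p = 0.059). For Slc2a1 it was 1.60 (SE 0.57, adjusted p = 0.0958), and the effects on Eno1 and Ldha, at -0.50 (adjusted p = 0.302) and -0.39 (adjusted p = 0.448), were not shown to differ. The value for Hk2 is not given, since no control TAL-like sum held a UMI of it.

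Among IRI PT-like nuclei, those with a UMI of Havcr1 (KIM-1, the standard injury marker) or Vcam1 (an adhesion molecule of PT cells that fail to repair) were set against those with neither, within each mouse. The marked nuclei numbered 1985 and 1561 on day 7 and 592, 1804 and 704 on day 28, and the unmarked 548 and 570, and 735, 1381 and 325. Of the 9 genes, 5 were higher in marked nuclei and none passed lower, where 26.2% of all genes passed (13.2% higher and 13.0% lower). Marked nuclei were also deeper, with median UMIs of 3891 and 2183 on day 7 and 1302, 3074 and 4646 on day 28, against 1623 and 1379, and 1228, 2717 and 4121, in unmarked nuclei.

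**Figure D5:**
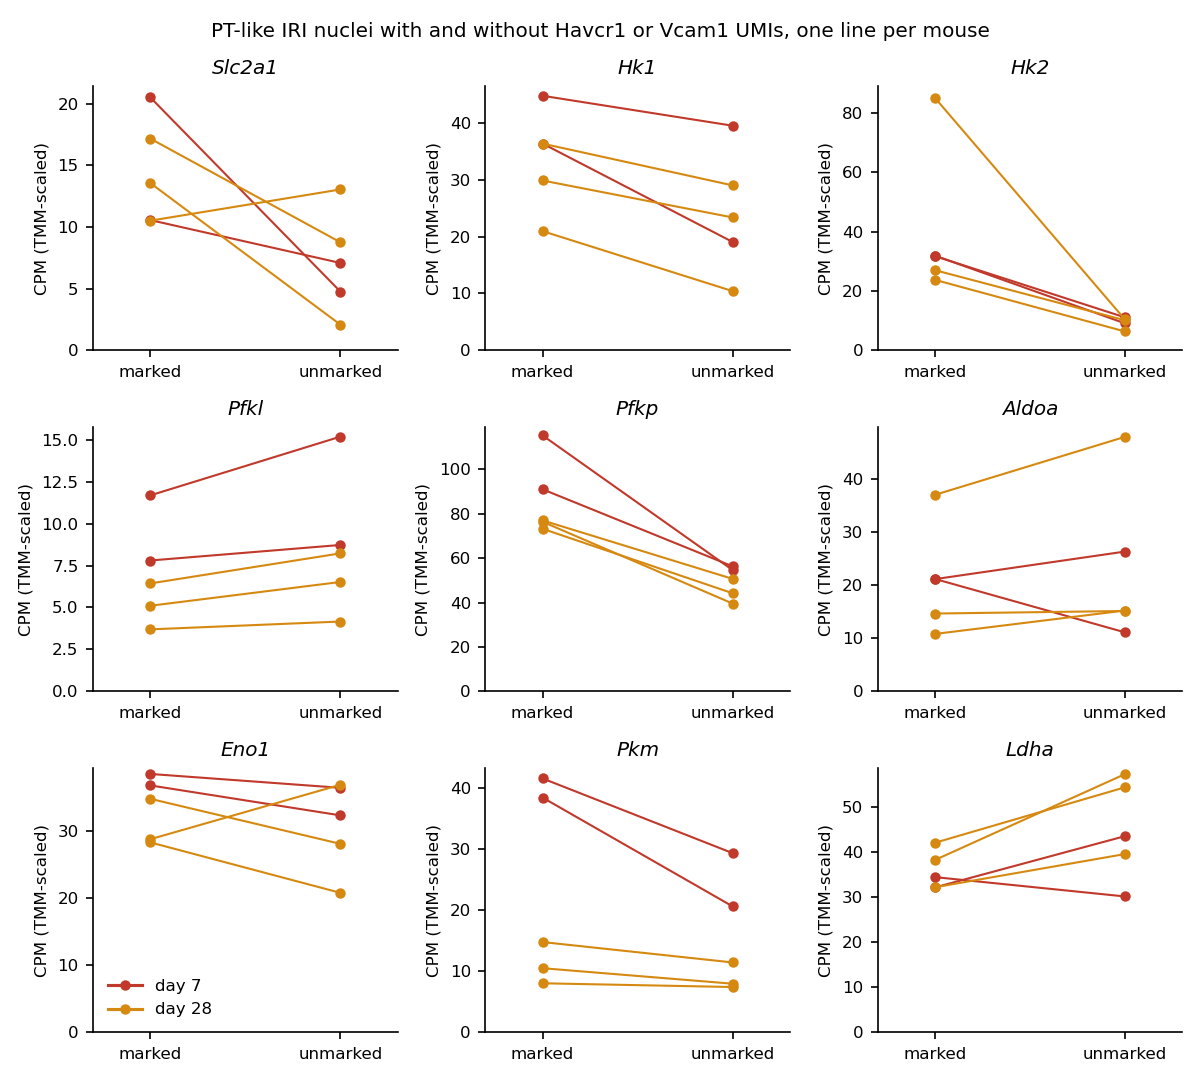
Levels of the 9 genes (TMM-scaled CPM, linear axes from 0) in marked and unmarked PT-like nuclei of the 5 IRI mice, 1 line per mouse, coloured by day. Hk2 and Pfkp are higher in marked nuclei in all 5 mice with no overlap between the sets of points, while Pfkl is lower in marked nuclei in each mouse by a difference that did not pass the test.

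Hk2 differed most between the states. It stood at 31.8 and 31.9 CPM on day 7 and 85.0, 23.8 and 27.0 CPM on day 28 in marked nuclei, against 11.1 and 9.11, and 10.4, 6.37 and 10.1 CPM, in unmarked nuclei. The log2 difference was 1.92 (SE 0.19, adjusted p = 2.02e-07), and all 5 mice showed it. Pfkp stood at 91.0 and 115.3 CPM on day 7 and 76.4, 77.0 and 73.3 CPM on day 28 in marked nuclei, against 56.3 and 54.6, and 39.6, 50.7 and 44.2 CPM, in unmarked nuclei (0.78, SE 0.10, adjusted p = 5.62e-06, higher in 5 of 5 mice). For both genes the lowest marked value lay above the highest unmarked one.

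The calls on Slc2a1, Hk1 and Pkm were less firm. Slc2a1 was higher in marked nuclei in 4 of 5 mice (0.94, SE 0.27, adjusted p = 0.0132), at 20.5 and 10.6 CPM on day 7 and 13.6, 17.2 and 10.5 CPM on day 28, against 4.76 and 7.08, and 2.08, 8.76 and 13.0 CPM. Hk1 (0.46, adjusted p = 0.0172) and Pkm (0.51, adjusted p = 0.028) were higher in 5 of 5 mice. Each of these 3 calls was lost in 5 of 16 alternative settings. With states called after thinning nuclei to 1000 UMIs, Slc2a1 (0.51, adjusted p = 0.0685) and Hk1 (0.22, adjusted p = 0.228) did not pass. Without day 7 mouse 1, none of the 3 passed (adjusted p = 0.104 for Slc2a1, 0.13 for Hk1 and 0.274 for Pkm). Aldoa (-0.06, adjusted p = 0.863), Eno1 (0.11, adjusted p = 0.586), Ldha (-0.28, adjusted p = 0.0956) and Pfkl (-0.31, adjusted p = 0.359) did not pass. Without day 7 mouse 1, Ldha passed, lower in marked nuclei (-0.41, adjusted p = 0.0249).

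The 2 marker genes were then separated. Nuclei with Vcam1 but no Havcr1 UMI (104, 95, 276, 696 and 388 in the 5 mice) were set against nuclei with Havcr1 but no Vcam1 UMI (1106, 971, 164, 583 and 99). Only Slc2a1 of the 9 genes passed, lower in Vcam1-only nuclei, where 2.72% of all genes passed (1.39% higher and 1.33% lower). It stood at 10.1, 16.2, 2.88, 5.52 and 7.05 CPM in Vcam1-only nuclei, from 3, 3, 1, 11 and 12 UMIs, against 19.0, 11.4, 36.7, 26.3 and 20.4 CPM in Havcr1-only nuclei, from 83, 29, 8, 47 and 9 UMIs. Day 7 mouse 2 went the other way, and the log2 difference was -1.77 (SE 0.35, adjusted p = 0.00104). The counts are small. Without day 28 mouse 2 Slc2a1 fell under the filter on low counts and was not tested, and in the other fits that left out 1 mouse its difference lay between -1.98 and -1.61. It did not pass with DESeq2 (-1.59, no adjusted p) or without the library as a block (-1.56, adjusted p = 0.741). Hk2 (-0.57, adjusted p = 0.306), Pfkp (-0.33, adjusted p = 0.396) and Hk1 (-0.23, adjusted p = 0.796) did not pass.

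Unmarked PT-like nuclei with a UMI of Slc34a1, the phosphate carrier of differentiated PT, were compared between day 28 (343, 526 and 199 nuclei) and control (2329, 2127, 4025 and 1842 nuclei). Of 8 genes tested, 1 was higher and 4 were lower, where 28.1% of all genes passed (13.9% higher and 14.2% lower). Pfkp stood at 19.5, 27.8 and 34.0 CPM on day 28, against 19.5, 11.2, 7.08 and 9.21 CPM in controls (1.22, SE 0.36, adjusted p = 0.0228). Aldoa stood at 60.4, 13.0 and 11.3 CPM, against 94.3, 152, 92.8 and 156.5 CPM (-2.34, SE 0.50, adjusted p = 0.00478). Eno1 stood at 11.7, 27.2 and 37.1 CPM, against 56.5, 99.8, 64.8 and 110.5 CPM (-1.62, SE 0.35, adjusted p = 0.0045). All day 28 values of Aldoa and Eno1 lay below all control values. With the barcode set as a term Aldoa did not pass (-1.03, adjusted p = 0.245), and with v2 libraries alone neither did (-1.06, adjusted p = 0.302 for Aldoa and -2.84, adjusted p = 0.0724 for Eno1).

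Pkm stood at 9.75, 4.94 and 2.06 CPM in these day 28 nuclei, against 15.5, 13.3, 11.5 and 16.9 CPM in controls (-1.49, adjusted p = 0.0251), and Ldha at 60.4, 38.9 and 51.5 CPM, against 59.8, 96.9, 85.5 and 115.1 CPM (-0.85, adjusted p = 0.0311). The Pfkp, Pkm and Ldha calls were lost in 6, 9 and 10 of 21 alternative settings, each of them without day 28 mouse 2, without day 28 mouse 3 and without control 2. Hk1 (0.92, adjusted p = 0.221) and Slc2a1 (1.49, adjusted p = 0.0884) did not pass in these nuclei, and Hk2 had too few UMIs to be tested.

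Along the proximal tubule of controls, nuclei of the S3-like clusters (362, 115, 598 and 208) were set against S1-S2-like ones (893, 942, 1812 and 53). Of 5 genes tested, Pfkp alone passed, higher in S3-like nuclei, where 20.8% of all genes passed (11.0% higher and 9.83% lower). It stood at 40.1, 20.4, 7.59 and 14.4 CPM in S3-like and at 19.5, 7.16, 6.78 and 0 CPM in S1-S2-like nuclei, higher in 4 of 4 mice (0.88, SE 0.33, adjusted p = 0.0437). The S1-S2-like sum of control 4 held only 43964 UMIs of all genes, too few for its 0 to show a low level. The call was lost in 5 of 12 alternative settings, among them without control 2 (0.78, adjusted p = 0.141). Without control 1 Pfkp was not tested. Aldoa (-0.11), Eno1 (-0.33), Pkm (-0.23) and Ldha (-0.09) did not pass.

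Other genes of the pathway also passed in both directions. Of the 27 genes tested of a list of 32 other glycolytic, carrier and regulatory genes, 4 were higher and 15 lower on day 7 (median log2 difference -0.94, against 0.01 over all genes, of which 26.6% were higher and 24.8% lower), and 4 higher and 11 lower on day 28 (-0.61, against 0.04 over all genes, of which 24.0% were higher and 21.0% lower). The neuron-type enolase Eno2 was higher (5.86, adjusted p = 4.36e-05 on day 7), as was Pfkfb3, which makes the activator of phosphofructokinase (1.70, adjusted p = 0.000817). The related Pfkfb2 (-3.49, adjusted p = 0.00138) and the carrier Slc2a3 (-2.87, adjusted p = 0.00116) were lower. On day 28 Pklr, the liver-type pyruvate kinase, was higher (2.88). Of these genes, Pfkfb2 (4.52) and Pklr (1.76) were higher on day 28 than on day 7.

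Most genes of glucose synthesis were lower after IRI and in marked nuclei. Of 10 tested, 9 were lower and 1 higher both on day 7 (median -2.99) and on day 28 (median -2.08), 9 were lower in marked than in unmarked nuclei (median -1.30), and 8 of 8 tested were lower after IRI in TAL-like nuclei (median -2.78). Over all genes 24.8%, 21.0%, 13.0% and 17.8% were lower in these comparisons. In unmarked day 28 against control nuclei 4 of 10 were lower (median -0.63), where 14.2% of all genes were, and between Vcam1-only and Havcr1-only nuclei 0 of 10 passed. On day 7 Slc37a4, the glucose-6-phosphate carrier, was lower by -4.12 and the mitochondrial Pck2 was higher by 1.97. In marked nuclei G6pc, which releases free glucose, was lower by -2.40 and Fbp1 by -2.0. Hk2 and Pfkp were higher in the same marked sums, and whether single nuclei combine these levels was not tested.

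Of 17 hypoxia-response genes, 3 were higher and 9 lower on day 7 (median -1.27, against 0.01 over all genes). On day 28, 2 were higher and 6 lower (median -0.67, against 0.04 over all genes). Over all genes 26.6% were higher and 24.8% lower on day 7, and 24.0% and 21.0% on day 28. Bhlhe40, a repressor that is induced by hypoxia, was higher (2.54 on day 7 and 2.45 on day 28), as was the prolyl hydroxylase Egln3 (1.05 and 1.89), whereas Adm (-4.05 and -2.80) and Vegfa (-3.03 and -2.17) were lower. Whether hypoxia has a part in the levels of Hk2 and Slc2a1 was not tested. Of 12 growth-signalling genes, 3 were higher and none passed lower at either time (medians 0.30 and -0.04), a share of higher genes near the 26.6% and 24.0% of all genes, with the insulin receptor substrate Irs1 at 2.29 and 2.31. In control TAL-like against PT-like nuclei, 4 of the 21 pathway genes tested were higher and 3 lower. These counts are near the shares over all genes, 14.7% higher and 16.0% lower. Among the called genes were Pdk1, which restrains pyruvate oxidation (3.46), and the PT glucose carrier Slc2a2 (-1.36).

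Over the 9 PT-like sums the genes whose levels ran most closely with each member differed between members, which share libraries, depth and the IRI against control split. For Hk2 they were Ptchd1 (r = 0.995) and Arpc1b (0.994), for Hk1 Ccdc30 (0.998) and Slc9a7 (0.994), for Pfkp Pde5a (0.992) and Tgfa (0.991), and for Slc2a1 Pomgnt1 (0.994) and Ikbkb (0.986). For Pkm they were Psrc1 (0.961) and Cenpf (0.950), both known from mitosis. For Aldoa they were Glmp and Ndufb7 (0.994 each), for Eno1 Lrrc47 (0.993) and Tkt (0.990), for Ldha Dctpp1 and Cox6c (0.983 each), and for Pfkl Prr11 (0.976) and Nudc (0.968). With 9 points in 3 groups these correlations are descriptions.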

How the data were processed

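Kidney nuclei of 9 mice were sorted for GFP and single nuclei, with doublets gated out at the sorter per the labels' protocols, and profiled with 10x 3′ kits. Per the submitters' processing notes, the tools were Seurat, STAR and Cell Ranger with the mm10 build; no source used here gives their versions or the strand setting. What the authors deposited, a control and an IRI table, holds unnormalized UMI counts of every gene in every nucleus. No doublet caller was run. In the counts as deposited, a gene detected in a library was seen there in at least 3 nuclei.

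All nuclei were clustered together (2000 variable genes without the members and lists, 79 genes in all, 30 principal components, 20 neighbours, Leiden in igraph 0.11.9 at resolution 2, 40 clusters) and clusters were named from marker lists. Naming thresholds (a marker score of 0.5 for PT and 1 for other classes, and at least 3 raised markers) were set after the scores were seen, and 1412 PT-like nuclei are in clusters under the score. A cluster with more markers of another class than of its own among its 10 leading genes was left out. Names were rebuilt here and may differ from the study's. With another seed 81.5% of nuclei kept their class, and 3 clusters with 3470 nuclei were left out, in place of 1 with 1654.

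Counts were summed per library and class and tested with edgeR 4.0.16 (R 4.3.3; TMM, filterByExpr, quasi-likelihood test, Benjamini-Hochberg adjustment over all genes tested, threshold 0.05). The PT model held all 9 libraries. Comparisons within libraries had the library as a block. DESeq2 1.42.0, other filters, clustering seeds, depth limits, a barcode term, a correction for gene span (GENCODE M21, 98.7% of genes) and leaving out each library were alternatives. Leaving out PT-like clusters under the score, adding the left-out cluster, putting 2 UMIs for a listed 0 of Hk2, and leaving out control 4 with day 28 mouse 1 were alternatives chosen after seeing the data. The tests were checked on simulated data. The 9 members, the pathway, hypoxia, glucose synthesis and growth-signalling lists and the markers were chosen with earlier results of these data known. All members are named; from each list the text draws on called genes with the largest log2 differences, up to 2 per direction and not all of them reported here, and for likeness on the 2 genes with the highest r. Each library is 1 mouse, so p-values measure the spread between these mice.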

Additional observations from a re-analysis of the deposited data

Results flagged for a closer look

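Of 62 groups of libraries examined, 5 had 1 library far from the rest, and chance alone gives about 1 in 20. Day 28 mouse 1 was the library in 3 of them, always for Hk2: 85 CPM in marked PT-like nuclei, against 23.8 to 31.9 CPM in the other 4 IRI mice, 66.2 CPM in Vcam1-only nuclei, against 12 to 26.8 CPM, and 87.2 CPM in Havcr1-only nuclei, against 18.1 to 28.3 CPM. The marked set contains both other sets, so the 3 values are not independent. Control 1 stood apart in Pfkp in TAL-like nuclei, at 159 CPM against 70.3, 76.2 and 84.5 CPM in the other controls. Control 2 was the only control with Hk2 listed above 0 in PT-like nuclei, at 1 CPM. Over all its nuclei Hk2 had 12 UMIs in 4 nuclei, of which 2 stroma-like nuclei held 8.

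The IRI effect differed between tubule types, tested as an interaction, by 1.94 on the log2 scale for Hk1, 2.03 for Pfkp and 1.55 for Pkm, each higher in PT-like than in TAL-like nuclei. Pkm also differed between the times, by -2.03 for day 28 minus day 7 in PT-like nuclei.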

How the results depend on the processing

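Of 1472 values of single members under an alternative, 1323 kept direction and side of the threshold, 101 kept direction and lost the call, and 6 gained one. The other 42 changed sign without passing the test in either fit, the furthest being Slc2a1 in unmarked day 28 nuclei (1.49, against -5.55 with the barcode term and -6.08 with v2 libraries alone), and 0 called values changed sign. IRI against control fits with the barcode term or with v2 libraries alone both rest on day 28 mouse 1, the only IRI library with v2 barcodes. The counts of members called moved as follows, and the cause was not tested unless said. With the barcode set as a term, the count was 5 in place of 8 for day 7 and for day 28 against control, 0 in place of 4 in TAL-like nuclei and 1 in place of 5 in unmarked nuclei; v2 libraries alone gave 4 on day 28 and 0 in unmarked nuclei, with fewer samples. Over all genes the barcode term left 2090 calls of 7326 on day 7, 3033 of 6404 on day 28, 32 of 2291 in TAL-like nuclei (26 higher and 6 lower, against 922 and 1369) and 282 of 3087 in unmarked nuclei; v2 libraries alone left 1967 on day 28 and 130 in unmarked nuclei. Summed over all nuclei, 0 members in place of 1 differed between day 28 and day 7, and removing the span trend left 2 in TAL-like nuclei. DESeq2 called 3 members in marked nuclei, 0 of Vcam1-only against Havcr1-only and 0 for S3; over all genes it called 1443 for day 28 against day 7 in place of 871, 130 in place of 295 for Vcam1-only and 1094 in place of 1848 for S3, and split the interaction calls 466 higher and 171 lower, against 474 and 277. The second clustering seed gave 2 in marked nuclei and 0 for S3, thinning gave 3 in marked nuclei, and no filter on low counts 0 for S3.

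When 1 library was left out, the members called ranged over 2 to 4 in TAL-like nuclei (lowest without day 7 mouse 2 or control 2) and 3 to 5 in marked nuclei (lowest without day 7 mouse 1). They ranged over 0 to 1 for Vcam1-only (0 without day 28 mouse 2, where Slc2a1 was not tested) and 2 to 6 in unmarked nuclei (lowest without day 28 mouse 2 or 3 or control 2). For S3 they were 0 to 1 (0 without control 2, and without control 1, where Pfkp was not tested). The day 7 and day 28 counts were 7 to 8. Over all genes, day 7 calls numbered 4664 and 4658 without day 7 mouse 1 and 2, and day 28 against day 7 calls 353 and 160. Interaction calls numbered 472 in place of 751 and TAL against PT calls 1828 in place of 2869 without control 1, unmarked calls 1318 and 1887 without day 28 mouse 2 and 3, Vcam1-only calls 145 without day 28 mouse 2, and S3 calls 1038 without control 1. Hk2 fits without control 2 reached 10.27 on day 7 and 10.19 on day 28, since controls were then all listed at 0.

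Mice that share a replicate number across groups did not deviate together (r between -0.283 and 0.060 over pairs), so the numbers do not pair them. With the replicate block, members called were 8 on day 7, 7 on day 28 (Pkm lost), 1 for day 28 against day 7, 3 in TAL-like nuclei (Ldha lost) and 2 in unmarked nuclei; over all genes 405 were called for day 28 against day 7 and 2025 in unmarked nuclei. With no replicate block in the comparisons within libraries, 2 members were called in marked nuclei, 0 for Vcam1-only, 0 for S3, 2 for the interaction and 3 for TAL against PT, and over all genes 596 of 3354, 2 of 295, 694 of 1848, 218 of 751 and 1550 of 2869. Depth limits Hk2 in controls and in TAL-like nuclei, Pfkl in TAL-like nuclei and Slc2a1 in Vcam1-only nuclei.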
